A study of Mus musculus with 18 samples.

Results

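The early course of the response to tunicamycin was followed by comparing cells after 135 min of tunicamycin with cells after 45 min. The comparison takes 6 of the 18 samples of the series, 3 at each time, chosen by the stress and time given in their labels. All of them are NIH3T3 cells, a line of mouse embryonic fibroblasts, that stably express a destabilizing domain (DD) fused to superfolder GFP. They were sorted as a pool for high fluorescence and kept in Shield-1 (S1), which binds and stabilizes the DD, at both times and in the control as well. The other 12 samples used below are 3 controls with no stress at time 0, 3 samples after 405 min of tunicamycin, and 3 samples each after 45 and 135 min of heat stress (HS). Polyadenylated RNA was sequenced in every case. The labels number the samples rep1 to rep3 but do not say that they came from separate cultures, so the p-values measure the spread between these samples, which may be technical. A single sorted pool of 1 cell line stands behind all 6 samples.

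Tunicamycin blocks the enzyme encoded by Dpagt1, which makes the first lipid-linked sugar of N-glycosylation, so that glycoproteins entering the endoplasmic reticulum (ER) do not fold properly. The ER signals this through the sensors PERK, IRE1 and ATF6. PERK phosphorylates eIF2 alpha, which slows translation in general and favours translation of ATF4, a transcription factor of the integrated stress response. IRE1 splices the Xbp1 mRNA, and XBP1 and ATF6 drive genes of ER chaperones and of ER-associated degradation. A different set of genes, the immediate-early genes, is switched on within minutes by growth factors, MAP kinases and serum response factor without new protein synthesis, and is switched off again by phosphatases and mRNA decay factors that the same signals induce.

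Between 33415592 and 66478268 reads were counted on genes in the 6 samples, and 3 reads, the level below which a gene is near the limit of counting, correspond to 0.0451 to 0.0898 CPM. All 12 fibroblast markers were measured, with a summed level of 33700.2 to 45554.4 CPM at 45 min and 40182.3 to 52259.5 CPM at 135 min. Only 6 of 16 markers of other cell types had reads in all 18 samples, their sum over the 16 was 15.01 to 16.9 CPM and 15.7 to 18.4 CPM, and Epcam, the epithelial adhesion molecule, had no read in any of the 6. Replicate 1 at 135 min stood apart from the others. Its log2 CPM correlated with those of the other 135 min samples with r = 0.972 and 0.970 across genes, against r = 0.993 between those samples, and its reads fell on genes with a mean GC content of 53.4% against 52.3% and 52.2%. Values without it are given beside the main results it touches, but not beside every gene. CPM values are scaled by TMM over all 18 samples, and fold changes come from a fit of the 6 samples with edgeR's quasi-likelihood test, adjusted by the Benjamini-Hochberg method over all genes tested.

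Of 12731 genes tested, 15 were higher at 135 min than at 45 min (0.118% of the genes) and 23 were lower (0.181%) at an adjusted p under 0.05. The genes that rose were led by immediate-early transcription factors and by the feedback genes that end their signals. The genes that fell included Atf3, Fgf21, Herpud1 and Hspa5, which belong to the integrated stress response and to ER protein folding. In each of the 38 genes, all 3 samples of one time lay on one side of all 3 samples of the other, and the absolute log2 fold changes ran from 0.83 to 2.86 (adjusted p from 0.00613 to 0.0494, edgeR). Over all genes, 11.4% lay wholly higher and 13.0% wholly lower at 135 min, and 8.23% were higher and 7.86% lower at an unadjusted p under 0.05, so that far more genes leaned one way than passed the adjusted test. The median log2 fold change of all genes was -0.02. In bulk RNA, fewer cells of a type and less RNA per cell cannot be told apart. These calls rest on 3 samples a time. Without replicate 1 at 135 min 213 genes passed, the 38 among them, whereas without replicate 1 at 45 min 1 gene passed, and without any 1 of the other 4 samples none did (the count at an unadjusted p under 0.05 with all 6 samples was 2049), although all 38 genes kept their direction in each of these fits.

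**Figure D1:**
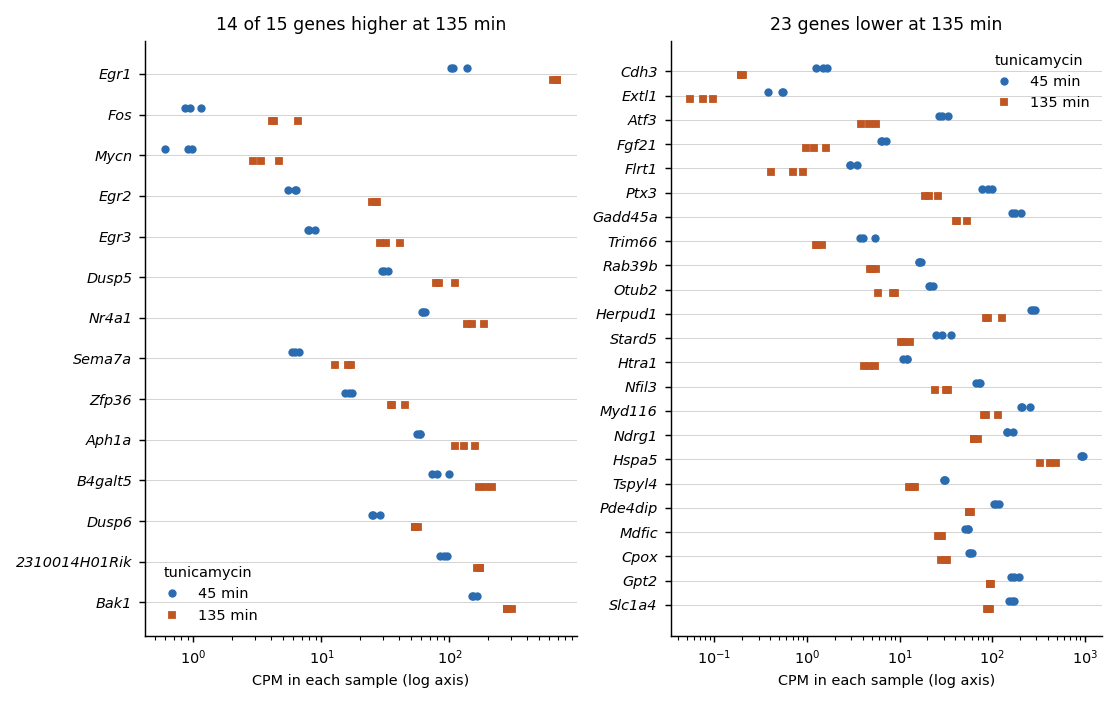
CPM on a log axis of 14 of the 15 genes that were higher (left) and the 23 that were lower (right) at 135 min than at 45 min of tunicamycin, with a circle for each sample at 45 min and a square for each sample at 135 min. The symbols of the 2 times do not overlap in any gene shown, and Extl1 lies near the limit of counting at 135 min.

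Egr1 rose the most. This zinc finger transcription factor, on chromosome 18 of mm9 from 35020861 to 35024610, stood at 136, 103 and 106 CPM in the 3 samples at 45 min and at 689, 694 and 639 CPM at 135 min (log2 fold change 2.55, standard error, SE, 0.159, adjusted p = 0.00613, edgeR). The rise was 5.87-fold and the samples of each time lay near each other. Its relatives Egr2 and Egr3 rose with it. Egr2 went from 6.22, 5.49 and 6.31 CPM to 27.0, 26.5 and 24.7 CPM (log2 fold change 2.12, adjusted p = 0.00613, edgeR), and Egr3 from 7.83, 8.05 and 8.85 CPM to 40.7, 32.1 and 28.8 CPM (2.04, adjusted p = 0.011, edgeR). Egr4, the fourth of the family, was close to the limit of counting at both times, with means of 0.0653 and 0.163 CPM.

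Fos encodes the partner of JUN in the AP-1 dimer. It was low at 45 min, at 0.936, 0.86 and 1.14 CPM, and reached 6.56, 4.26 and 4.08 CPM at 135 min (log2 fold change 2.35, SE 0.255, adjusted p = 0.0281, edgeR). Fosb gave 2.20, 2.77 and 2.67 CPM against 9.48, 8.57 and 18.9 CPM, and its log2 fold change of 2.28 did not pass (adjusted p = 0.0619, edgeR). Junb and Jun, both partners of FOS in the dimer, did not pass either. Junb had 29.9, 33.8 and 36.8 CPM against 113, 64.2 and 54.4 CPM, and Jun had 144, 144 and 157 CPM against 339.9, 253 and 220.1 CPM, so that both times were apart but replicate 1 was far above its companions at 135 min. Without that replicate, Fosb, Junb and Jun passed, with adjusted p of 0.0216, 0.0366 and 0.0372 (edgeR), and the log2 fold change of Junb was 0.85 in place of 1.20. Fosb, Junb and Jun were picked out after their values were seen.

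Nr4a1, an orphan nuclear receptor of the immediate-early class, rose from 62.3, 60.9 and 64.2 CPM to 185, 137 and 150.5 CPM (log2 fold change 1.34, SE 0.141, adjusted p = 0.0248, edgeR). The related Nr4a2 and Nr4a3 had log2 fold changes of -0.13 and -0.20, far from the threshold. Of the 39 AP-1, Egr and Nr4a immediate-early factors tested, 5 rose (Egr1, Fos, Egr2, Egr3 and Nr4a1) and 1 fell (Atf3), against 0.118% and 0.181% of all genes. At an unadjusted p under 0.05, 16 were higher and 4 lower, beside 8.23% and 7.86% of all genes. The median log2 fold change of the list was 0.36, beside -0.02 for all genes. Without replicate 1 at 135 min, 12 members passed upward and 5 downward with a median of 0.20. With an offset for the GC content of transcripts, 12 passed upward and 2 downward with a median of 0.23. Over all 12731 genes, 105 passed upward and 108 downward without that replicate, and 144 and 140 with the offset. The Kruppel-like factors Klf2, Klf4 and Klf6 stood on the other side of the list, with log2 fold changes of -0.63, -0.55 and -0.47, none past the threshold.

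Genes that damp growth factor signals rose at the same time. Dusp5 and Dusp6 are phosphatases that inactivate the MAP kinase ERK. Dusp5 rose from 30.6, 29.5 and 33.2 CPM to 109.6, 82.8 and 78.7 CPM (log2 fold change 1.54, SE 0.158, adjusted p = 0.0222, edgeR). For Dusp6 the 3 samples moved closely together, from 28.7, 25.3 and 24.9 CPM to 54.2, 56.4 and 53.7 CPM (log2 fold change 1.06, adjusted p = 0.042, edgeR). Zfp36, which binds AU-rich mRNAs and speeds their decay, rose from 16.5, 15.4 and 17.3 CPM to 45.2, 34.9 and 35.7 CPM (log2 fold change 1.24, adjusted p = 0.0425, edgeR). The control means were 42.3 CPM for Dusp5, 52.7 CPM for Dusp6 and 23.3 CPM for Zfp36. Dusp6 at 135 min was thus near its control level, and Dusp5 and Zfp36 were above theirs. Of the 37 genes tested on the list of feedback genes, these 3 rose and 1 fell (0.118% and 0.181% of all genes). The 1 that fell, Gadd45a, was put on this list but is a growth arrest gene, described below. At an unadjusted p under 0.05, 19 were higher and 5 lower, beside 8.23% and 7.86% of all genes, and the median was 0.38. The count was 10 higher and 5 lower without replicate 1 at 135 min and 8 higher and 3 lower with the GC offset. Over all genes it was 105 and 108, and 144 and 140. Among those that did not pass, and picked out after their values were seen, were Dusp1, a nuclear MAP kinase phosphatase, at 0.99 (adjusted p = 0.0732, edgeR), and Spry4, an inhibitor of receptor tyrosine kinase signals, at 1.46 (adjusted p = 0.0928, edgeR).

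The promoter of Dusp5 is shown because it held the clearest sequence match among the genes that rose. RefSeq promoters, from 250 bases before to 50 after the transcription start, were given for 32 of the 38 genes (12 higher, 20 lower). They were searched on both strands for 6 motifs and, as a choice made after seeing the data, for the CArG box that serum response factor binds. The sequence is chr19:53528895-53529194 of GRCm38.p6, plus strand, 5′ to 3′, with the 2 CArG boxes in capitals. They adjoin each other and begin 82 and 72 bases before the start.
Dusp5: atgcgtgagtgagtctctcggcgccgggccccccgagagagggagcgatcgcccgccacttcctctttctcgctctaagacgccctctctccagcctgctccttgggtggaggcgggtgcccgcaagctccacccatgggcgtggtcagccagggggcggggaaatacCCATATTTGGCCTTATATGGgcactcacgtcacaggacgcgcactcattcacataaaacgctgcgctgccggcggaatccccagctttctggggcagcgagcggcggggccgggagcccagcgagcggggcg
A CArG box was present in a promoter of 3 of the 12 genes that rose (Dusp5, Egr2 and Zfp36) and of 1 of the 20 that fell (Herpud1), and in 1.81% of the 27025 genes in the table. A match describes the letters only.

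The other genes that rose had no single function. Mycn, a relative of Myc, rose from 0.594, 0.913 and 0.974 CPM to 4.69, 3.37 and 2.90 CPM (log2 fold change 2.15, adjusted p = 0.0439, edgeR), whereas Myc itself stood at 654, 598 and 720.4 CPM against 570.5, 414 and 400.2 CPM, and did not pass (log2 fold change -0.51, adjusted p = 0.228, edgeR). Without replicate 1 at 135 min Myc passed downward, at -0.67 (adjusted p = 0.047, edgeR). Mycn was the only one of 26 genes of the MYC network, G1 cyclins and CDK inhibitors to pass with all 6 samples. At an unadjusted p under 0.05, 10 of them were higher and 2 lower, beside 8.23% and 7.86% of all genes. The median of the list was 0.31. Without replicate 1 at 135 min 3 passed upward and 1 downward, beside 105 and 108 of all genes. Of 35 SRF, YAP and TGF-beta targets, 10 were higher and 3 lower at an unadjusted p under 0.05, beside 8.23% and 7.86% of all genes. Their median log2 fold change was 0.28. Sema7a, a membrane-anchored semaphorin, rose with a log2 fold change of 1.29 and Aph1a, a subunit of gamma-secretase, with 1.20 (adjusted p = 0.0439 for each, edgeR). Further genes that rose, named after their values were seen, were B4galt5 (1.18), a galactosyltransferase of the Golgi, 2310014H01Rik (0.92) and Bak1 (0.90), a pore-forming protein of apoptosis. With the GC offset Bak1 had an adjusted p of 0.0702. Mycn and B4galt5 at 135 min, with means of 3.66 and 190 CPM, were near their control means of 3.18 and 175 CPM. Sema7a, Aph1a, 2310014H01Rik and Bak1 were above theirs.

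Turning to the genes that fell, Atf3 changed the most among those well above the limit of counting. It encodes a transcription factor that is induced through ATF4 and many other stress signals, and is encoded at 192994176 to 193007212 of chromosome 1 (mm9). Its level was 26.6, 28.9 and 33.1 CPM at 45 min and 5.52, 3.82 and 4.70 CPM at 135 min (log2 fold change -2.66, SE 0.187, adjusted p = 0.00613, edgeR). Fgf21, a secreted hormone of the same response, went from 6.43, 6.38 and 7.22 CPM to 1.62, 1.20 and 0.985 CPM (log2 fold change -2.39, adjusted p = 0.013, edgeR). Another 3 members passed, Herpud1 (described below) among them. Myd116 (Ppp1r15a, GADD34), the subunit that directs a phosphatase to eIF2 alpha, fell from 206, 209 and 256 CPM to 115, 81.2 and 86.2 CPM (log2 fold change -1.25, adjusted p = 0.0446, edgeR). Ndrg1, a stress-responsive gene of cell differentiation, fell from 145, 143 and 167 CPM to 69.9, 63.8 and 63.8 CPM (log2 fold change -1.20, adjusted p = 0.0204, edgeR).

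Among the 46 genes of the integrated stress response, 5 fell and none rose (0.181% of all genes fell and 0.118% rose). At an unadjusted p under 0.05, 30 were lower and 1 higher, and 31 lay wholly lower at 135 min, beside 7.86% and 13.0% of all genes. The median log2 fold change of the list was -0.56. Without replicate 1 at 135 min 16 members passed, all downward, with a median of -0.60. With the GC offset 20 passed downward and 1 upward with a median of -0.55. Over all genes, 108 passed downward and 105 upward without that replicate, and 140 and 144 with the offset. The transcription factor Ddit3 (CHOP) did not pass. It had 416, 520.3 and 689 CPM at 45 min and 287, 175 and 161 CPM at 135 min, so the times did not overlap, but the spread within each was wide (log2 fold change -1.38, SE 0.269, adjusted p = 0.105, edgeR). Trib3, a pseudokinase induced by CHOP, came close with 230.4, 264 and 331 CPM against 127, 87.6 and 82.6 CPM (log2 fold change -1.47, adjusted p = 0.053, edgeR). Chac1, which degrades glutathione, had 241, 234 and 284 CPM against 169.96, 124 and 100.03 CPM (log2 fold change -0.94, adjusted p = 0.122, edgeR). Replicate 1 was the highest of the 3 samples at 135 min in all 3 genes, and without it each passed, with adjusted p of 0.0199, 0.00937 and 0.0199 (edgeR).

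Atf4, whose product regulates much of this list, did not follow it. Its mRNA stood at 805, 761 and 849 CPM at 45 min and 1116, 689 and 885 CPM at 135 min, with overlapping samples (log2 fold change 0.16, SE 0.185, adjusted p = 0.717, edgeR), and the change was -0.0081 without replicate 1 at 135 min. The mRNA level does not report ATF4 translation. Atf5, another factor controlled by translation, had means of 554 and 973 CPM (log2 fold change 0.81, adjusted p = 0.215, edgeR). Slc7a11, the cystine transporter, and Cth, the enzyme that makes cysteine, had log2 fold changes of -1.50 and -1.48 without passing (adjusted p = 0.11 and 0.104, edgeR). Slc7a11 passed without replicate 1 at 135 min (adjusted p = 0.047, edgeR) and with the GC offset (0.0146). Not every member of the list was clearly lower. Phgdh, the first enzyme of serine synthesis, and Mars, the methionyl-tRNA synthetase, had log2 fold changes of -0.02 and -0.03. Both lay above most of the list, which had a median of -0.56 and an upper quartile of -0.34.

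Among the ER genes, Hspa5 and Herpud1 passed the threshold, both downward. Hspa5 (BiP), the main HSP70 chaperone of the ER lumen, on chromosome 2 of mm9 from 34627610 to 34632049, stood at 955, 928 and 923 CPM at 45 min and at 491, 421 and 333 CPM at 135 min (log2 fold change -1.17, SE 0.162, adjusted p = 0.0494, edgeR). All 3 samples at 135 min were thus also under the 656, 683 and 735 CPM of the controls. The call is at the edge of the threshold, with an adjusted p of 0.0105 without replicate 1 at 135 min and of 0.06 with the GC offset. Herpud1, a membrane protein of ER-associated degradation, fell from 266, 274 and 289 CPM to 127, 86.6 and 90.1 CPM (log2 fold change -1.45, SE 0.166, adjusted p = 0.0366, edgeR), with replicate 1 again the highest at 135 min.

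Hspa5 was the only one of 26 ER chaperones and disulfide isomerases to pass, and Herpud1 the only one of 20 genes of ER-associated degradation. At an unadjusted p under 0.05, 6 of the 26 were lower and 1 higher, and 4 of the 20 were lower and 1 higher (7.86% and 8.23% of all genes). The median log2 fold changes were -0.13 and -0.04. Dnajb9 (ERdj4), a cochaperone of BiP, had 5.72, 5.55 and 6.33 CPM against 2.93, 2.32 and 2.79 CPM and did not pass (log2 fold change -1.13, adjusted p = 0.0653, edgeR, and 0.0316 without replicate 1 at 135 min). Sdf2l1, another partner of BiP, had 21.5, 27.6 and 33.4 CPM against 21.3, 13.7 and 11.4 CPM (log2 fold change -0.83, adjusted p = 0.218, edgeR). For Hsp90b1 (GRP94), the HSP90 of the ER, the difference was -0.38 (adjusted p = 0.227, edgeR). Calr, Pdia6 and Hyou1, further folding factors, lay at -0.12, -0.05 and -0.05. None of the 16 ER stress sensors and their transcription factors passed. Xbp1 had 76.1, 71.4 and 64.9 CPM against 36.1, 44.6 and 40.8 CPM (log2 fold change -0.80, adjusted p = 0.0859, edgeR, and 0.0461 without replicate 1 at 135 min), and these totals do not separate its spliced from its unspliced form. Atf6 was at -0.60 and the mRNAs of the sensors Ern1 (IRE1) and Eif2ak3 (PERK) at -0.24 and -0.06. The ER calcium channel modulator Tmbim6 stood on the other side at 0.52 (adjusted p = 0.137, edgeR).

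Promoters of 3 genes that fell are shown because they carry elements known from these responses. The motifs searched were ERSE (CCAAT and CCACG separated by 9 bases), UPRE (TGACGTGG), CARE (TGATGCAA), CRE (TGACGTCA), AP-1 (TGANTCA) and TATAAA. The sequences run 5′ to 3′ on the strand of the gene, in GRCm38.p6 from RefSeq, with every match to these motifs or to the CArG box in capitals. They are chr1:191183284-191183583 on the minus strand for Atf3, chr8:94386179-94386478 on the plus strand for Herpud1 and chr2:34771840-34772139 on the plus strand for Hspa5.
Atf3: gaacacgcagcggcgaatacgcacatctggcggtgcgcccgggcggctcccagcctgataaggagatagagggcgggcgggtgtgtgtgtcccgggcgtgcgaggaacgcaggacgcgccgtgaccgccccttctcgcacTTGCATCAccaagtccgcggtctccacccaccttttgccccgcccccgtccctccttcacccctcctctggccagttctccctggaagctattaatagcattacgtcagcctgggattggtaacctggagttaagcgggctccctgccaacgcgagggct
Herpud1: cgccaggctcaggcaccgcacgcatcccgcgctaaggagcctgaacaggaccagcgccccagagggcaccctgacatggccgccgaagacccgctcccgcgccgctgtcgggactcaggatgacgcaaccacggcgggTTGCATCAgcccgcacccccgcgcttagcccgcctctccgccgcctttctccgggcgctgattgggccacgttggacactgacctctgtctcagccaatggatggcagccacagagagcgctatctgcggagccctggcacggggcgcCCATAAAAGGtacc
Hspa5: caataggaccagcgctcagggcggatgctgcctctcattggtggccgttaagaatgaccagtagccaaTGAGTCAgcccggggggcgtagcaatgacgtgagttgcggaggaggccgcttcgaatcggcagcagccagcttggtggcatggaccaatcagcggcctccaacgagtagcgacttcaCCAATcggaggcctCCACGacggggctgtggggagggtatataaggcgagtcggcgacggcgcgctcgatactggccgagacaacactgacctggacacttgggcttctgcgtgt
Atf3 and Herpud1 each held 1 CARE, the element that ATF4 binds with a C/EBP partner, on the opposite strand, beginning 110 and 112 bases before the start. Hspa5 held 1 ERSE, the element of ATF6 and XBP1, 65 bases before the start, and 1 AP-1 match. The other match in Herpud1 is the CArG box after the start. Over the 20 genes that fell with a promoter in the table, 4 held a CARE (Atf3, Fgf21, Herpud1 and Slc1a4), against 1.03% of all genes, 1 held an ERSE against 0.137%, 2 a CRE against 2.03%, 3 an AP-1 match against 8.97%, 4 a TATAAA against 15.7% and none an UPRE against 0.714%. None of the 12 genes that rose held an ERSE, CARE, CRE, AP-1 or UPRE match, and 2 held a TATAAA. Matches and their absence refer to the letters in this window, and other forms of these elements were not searched.

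The other genes that fell came from many functions. Gadd45a, a growth arrest gene induced by DNA damage and stress, had 165, 175 and 207 CPM against 53.9, 42.0 and 41.0 CPM (log2 fold change -1.996, SE 0.157, adjusted p = 0.0102, edgeR). Its relative Gadd45b, with means of 82.7 and 43.6 CPM, had a log2 fold change of -0.92 (adjusted p = 0.129, edgeR). Ptx3, a secreted pentraxin of innate immunity, fell from 77.2, 90.7 and 99.8 CPM to 26.2, 18.7 and 20.6 CPM (log2 fold change -2.03, adjusted p = 0.011, edgeR). Rab39b, a small GTPase of vesicle traffic, went from 16.2, 16.1 and 17.1 CPM to 4.77, 4.99 and 5.58 CPM (log2 fold change -1.69, adjusted p = 0.0125, edgeR), and Otub2, a deubiquitinase, from 22.8, 21.1 and 20.8 CPM to 5.83, 8.51 and 8.84 CPM (-1.48, adjusted p = 0.0446, edgeR). Nfil3, a repressor that acts in the circadian clock, went from 72.8, 74.5 and 67.0 CPM to 24.3, 31.4 and 33.1 CPM (-1.27, adjusted p = 0.0439, edgeR) and was the only one of 19 clock genes to pass.

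Low genes also passed. Cdh3 (P-cadherin) had the largest fall, from 1.25, 1.63 and 1.503 CPM to 0.194, 0.206 and 0.191 CPM (log2 fold change -2.86, SE 0.247, adjusted p = 0.011, edgeR), and its level at 135 min is only a few times that of 3 reads, which leaves the size uncertain. Extl1, a glycosyltransferase related to exostosins, went from 0.55, 0.543 and 0.381 CPM to 0.0968, 0.075 and 0.0547 CPM, near the level of 3 reads. Flrt1, a leucine-rich transmembrane protein, and Trim66, a chromatin-binding protein, fell with log2 fold changes of -2.23 and -1.72 (adjusted p = 0.0439 for each, edgeR). The remaining genes past the threshold, named like Extl1 after their values were seen, were Stard5 (-1.36), a sterol-binding protein, Htra1 (-1.29), a secreted serine protease, Tspyl4 (-1.14), Pde4dip (-0.95), Mdfic (-0.95), Cpox (-0.92), an enzyme of haem synthesis, Gpt2 (-0.87), the mitochondrial alanine aminotransferase, and Slc1a4 (-0.83), a transporter of alanine, serine and cysteine.

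No member passed in the other 18 gene lists. Without replicate 1 at 135 min some did, beside 105 upward and 108 downward of all 12731 genes. Downward were 2 of 5 arrestins (Txnip among them), 2 of 20 NRF2 and metal response genes and 1 ribosomal protein. Upward were 2 of 51 genes of ER translocation and transport. The secreted signals, the matrix genes and the oxidative phosphorylation subunits each had 1 upward. Dpagt1, which encodes the target of tunicamycin, had 37.0, 32.8 and 17.2 CPM against 17.0, 39.0 and 37.8 CPM (log2 fold change 0.11, adjusted p = 0.916, edgeR), and none of the 39 N-glycosylation enzymes passed (median -0.13). Txnip, a thioredoxin-binding arrestin, had 326, 314 and 291 CPM against 79.3, 139 and 164 CPM, without passing (log2 fold change -1.28, adjusted p = 0.115, edgeR, and 0.0192 without replicate 1 at 135 min). Hspa1a, the inducible cytosolic HSP70, had 0.49, 0.715 and 0.804 CPM against 3.51, 1.12 and 1.89 CPM (1.70, adjusted p = 0.162, edgeR), and the 23 heat shock genes had a median of 0.21. Uqcrh, a subunit of complex III, reached 0.88 (adjusted p = 0.0758, edgeR, and 0.0425 without replicate 1 at 135 min) among 75 subunits of oxidative phosphorylation with a median of -0.01. The 77 cytosolic ribosomal proteins had a median of -0.14 and the 43 proteasome subunits of -0.08. The 5 reported substrates of IRE1-dependent decay had a median of 0.16 and the 26 cholesterol genes of 0.13.

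**Figure D2:**
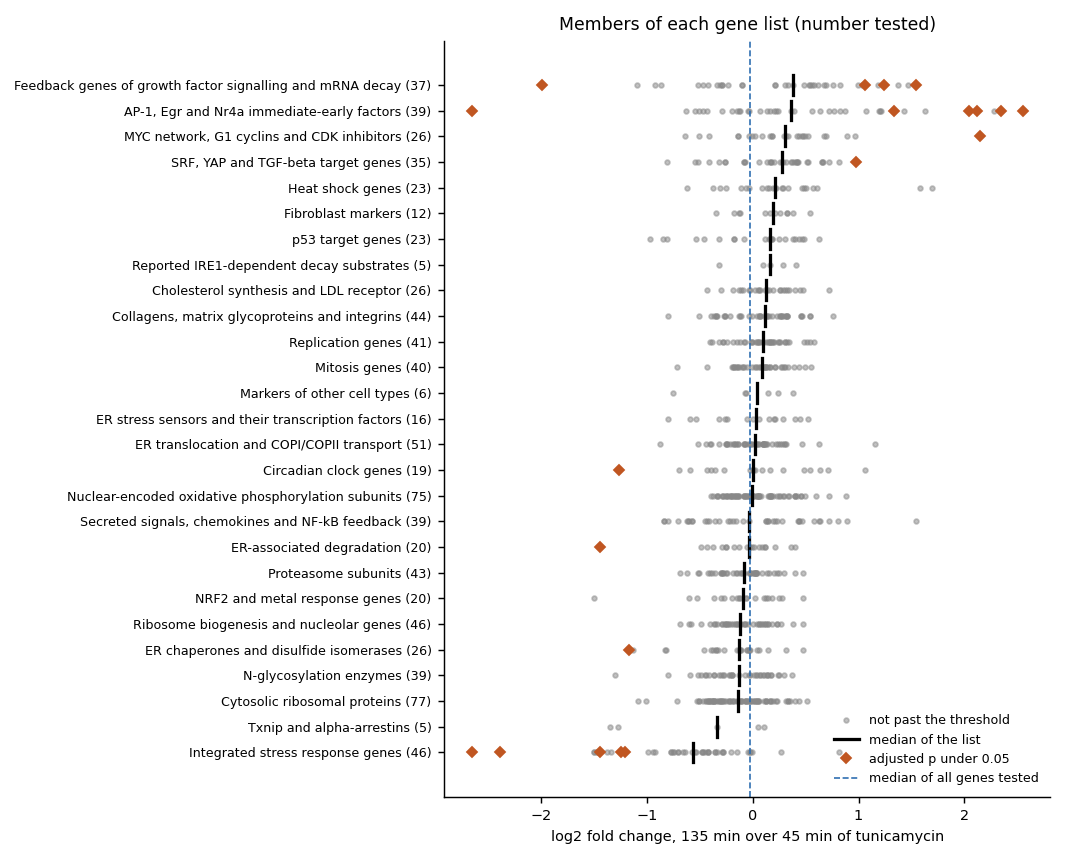
Log2 fold change from 45 to 135 min of tunicamycin for each member of 27 gene lists, with the number tested in brackets, diamonds for members with an adjusted p under 0.05, a black bar for the median of the list and a dashed line for the median of all genes (-0.02). The integrated stress response genes lie lowest, with a median of -0.56, and the feedback genes and immediate-early factors highest, with medians of 0.38 and 0.36.

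The levels before and after these times are given side by side, without a test, because the comparisons would share samples with the one reported here. Egr1 stood at 150.1 ± 28.5 CPM in the controls, 115 ± 18.3 at 45 min, 674 ± 30.5 at 135 min and 66.1 ± 7.57 at 405 min (SD, n = 3), so that 135 min was the single high point of its course. Fos followed the same course, with 1.13 ± 0.152, 0.98 ± 0.146, 4.96 ± 1.38 and 0.491 ± 0.0942 CPM, and so did Dusp5, with 42.3 ± 4.93, 31.1 ± 1.87, 90.4 ± 16.8 and 18.2 ± 0.347 CPM (SD, n = 3). The stress genes had the opposite course. Atf3 went from 1.03 ± 0.183 CPM in the controls to 29.6 ± 3.31 at 45 min, back to 4.68 ± 0.846 at 135 min and up to 93.1 ± 2.42 at 405 min (SD, n = 3).

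Ddit3 had 71.9 ± 2.29, 542 ± 138, 208 ± 69.2 and 2629 ± 402 CPM over the same times, and Herpud1 58.4 ± 8.26, 276 ± 11.6, 101.1 ± 22.2 and 1554 ± 61.4 CPM (SD, n = 3). Both were thus high at 45 min, lower at 135 min and highest at 405 min. The times are those of the labels, and the assignment of samples to the 2 early times was not tested. Hspa5 stood at 692 ± 40.4, 935 ± 17.2, 415 ± 79.1 and 9010.1 ± 252 CPM (SD, n = 3). Atf4 did not have this dip, with 480.02 ± 8.57, 805 ± 43.8, 897 ± 214 and 1445 ± 74.5 CPM (SD, n = 3).

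**Figure D3:**
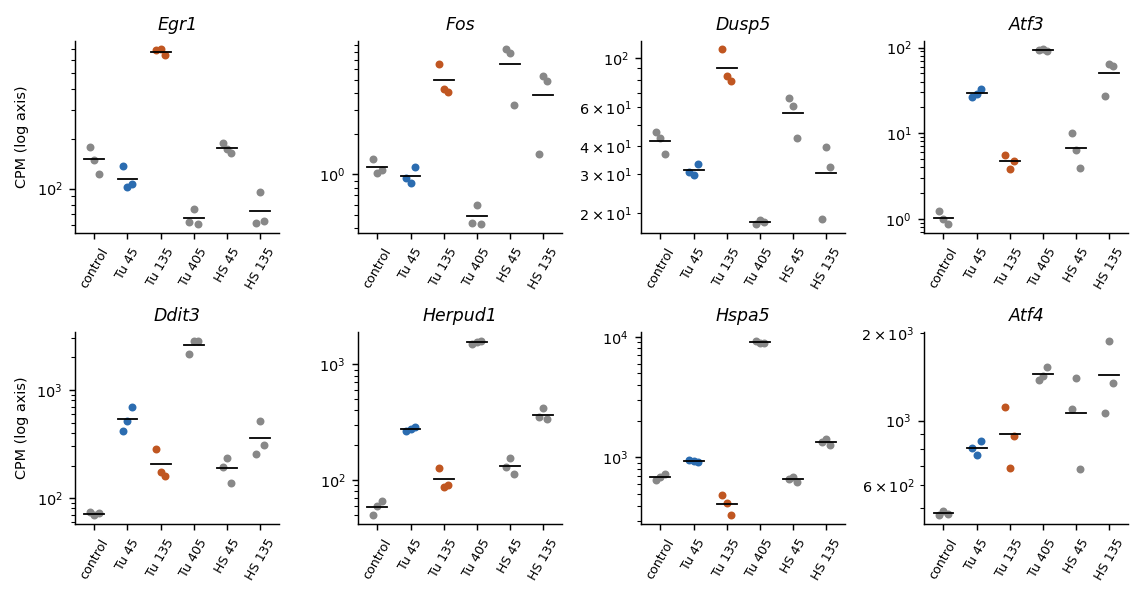
CPM on log axes of 8 genes in each sample of the 6 groups (control, tunicamycin for 45, 135 and 405 min, heat for 45 and 135 min), with a bar at the mean of each group. Egr1, Fos and Dusp5 have their highest tunicamycin values at 135 min, whereas Atf3, Ddit3, Herpud1 and Hspa5 are lower at 135 min than at 45 and 405 min and Atf4 is not.

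**Figure D4:**
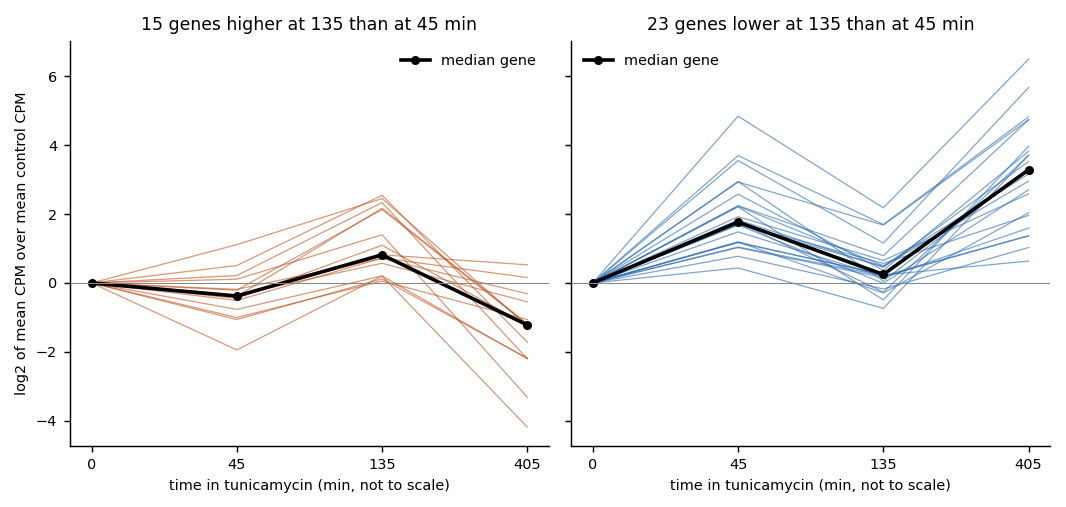
Log2 ratio of the mean CPM to the mean control CPM over time in tunicamycin for the 15 genes that rose (left) and the 23 that fell (right) from 45 to 135 min, with a thin line per gene and a thick line for the median gene. The genes were chosen by their levels at 45 and 135 min. The median gene on the left lies at -0.38, 0.82 and -1.22 at 45, 135 and 405 min, and that on the right at 1.77, 0.25 and 3.29.

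The step from 45 to 135 min in tunicamycin was compared with the step between the same times in heat. The steps share no sample. Heat is itself a stress, and the series holds no unstressed samples at 45 or 135 min. The comparison therefore describes how the steps differ between the stresses, and the effect of time alone was not tested. The interaction passed the threshold for 415 of the 12731 genes (3.26%), with 184 genes more positive and 231 more negative in tunicamycin. With 1 sample left out, the count ran from 118 (without tunicamycin 45 min replicate 2) to 855 (without heat 45 min replicate 3). Of the 38 genes, 30 were among them, 11 that rose and 19 that fell in tunicamycin. Since the 38 were chosen on the tunicamycin step, which is part of the interaction, this count is a description. In heat, the mean CPM of 12 of the 15 genes that rose in tunicamycin was lower at 135 than at 45 min, and that of 21 of the 23 genes that fell was higher. Over all genes, 47.3% were lower and 52.7% higher in heat.

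Egr1 had 176 ± 12.7 CPM at 45 min of heat and 73.4 ± 18.9 CPM at 135 min (SD, n = 3), and the step in tunicamycin exceeded that in heat by 3.86 on the log2 scale (adjusted p = 0.00015, edgeR). Among the 38 genes, Cdh3 gave the largest difference in the other direction. It rose in heat from 0.234 ± 0.052 to 1.68 ± 0.444 CPM (SD, n = 3), and the steps differed by -5.68 (adjusted p = 0.000179, edgeR). Atf3 had 6.78 ± 3.11 and 50.9 ± 20.4 CPM in heat (SD, n = 3) and a difference of -5.53 (adjusted p = 0.000915, edgeR), and Herpud1 132.7 ± 20.5 and 368 ± 47.5 CPM (SD, n = 3) and a difference of -2.88 (adjusted p = 0.000402, edgeR). For Hspa5 the heat values were 662 ± 34.2 and 1341 ± 73.8 CPM (SD, n = 3), with a difference of -2.15 (adjusted p = 0.000915, edgeR). The difference did not pass for 8 of the 38 genes, among them Stard5 at -0.59 (adjusted p = 0.276, edgeR) and B4galt5 at 0.43 (adjusted p = 0.419, edgeR).

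**Figure D5:**
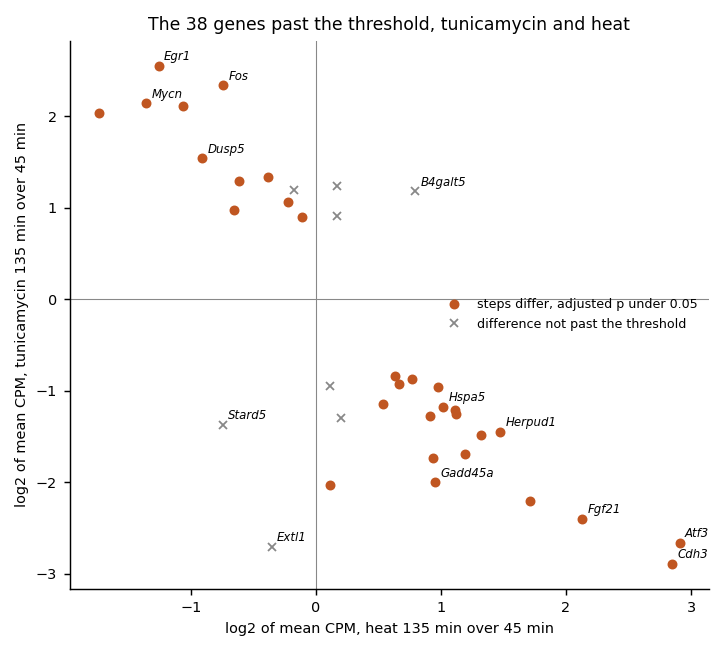
Log2 ratio of mean CPM at 135 min to that at 45 min in tunicamycin (vertical) and in heat (horizontal) for the 38 genes past the threshold in tunicamycin, with circles for the 30 whose steps differ and crosses for the other 8. Of the genes that rose in tunicamycin 12 lie left of 0, and of those that fell 21 lie right of it.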

How the data were processed

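Messenger RNA of 18 samples was sequenced, and the 6 samples at 45 and 135 min of tunicamycin were compared (3 at each time, grouped by their labels). Per the submitters' processing notes, reads were aligned to mm9; the aligner and its version are not given in the sources used here. The files that the authors deposited give, per sample and gene, an estimated count, of which 17.3% to 22.6% of the low values were not whole (tolerance 0.001), and an RPKM value made from it. Only the estimated counts were tested; 2 further columns derived from the RPKM were not used. Counts were joined by gene name and rounded, and the 12731 of 20207 genes that had a read in all 18 samples (a minimum of 1) were tested. TMM factors within the samples fitted, the quasi-likelihood test of edgeR 4.0.16 (R 4.3.3) and Benjamini-Hochberg adjustment were used. The step in tunicamycin against that in heat was an interaction in a fit of 12 samples. The script was tested on simulated data. The standard error was computed from the fold change and its F statistic.

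The gene lists, the genes to be named and the comparison itself were chosen with earlier results of these data known. Named were the 10 largest rises and falls past the threshold without overlap and with at least 50 reads on average in the higher group, 16 core genes, up to 4 members past the threshold of each list (otherwise the 3 with the smallest p), and the 3 most extreme interactions in each direction. A gene past the threshold is counted but not reported here. No list was tested as a set. The alternatives were no filter or filterByExpr, DESeq2 size factors, total counts, the DESeq2 1.42.0 Wald test, edgeR's exact test, fits of 18 or of 12 samples, the replicate number as a block, an offset for transcript GC content (lowess, span 0.3, a value for 97.6% of genes tested), a fold change limit, and leaving out each sample. edgeR's legacy dispersion fit was added after seeing the data. Counts between replicates differed by far more than sampling noise (chi-square per degree of freedom 27.9 to 276.8 over 11598 genes). The limits of counting cover counting error only. Gene coordinates are those of the files; those of 741 genes differ between files.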

Additional observations from a re-analysis of the deposited data

Results flagged for a closer look

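The step from 45 to 135 min differed between tunicamycin and heat, in the interaction test of edgeR, for 37 of the 92 named genes, beside 3.26% of all genes tested. Many of the 92 were named for a large step in tunicamycin or for an extreme difference between the steps, so this share follows in part from how they were chosen. The values are log2 differences, tunicamycin minus heat, all with an adjusted p under 0.05. More positive in tunicamycin were Egr1 (3.86), Egr3 (3.82), 4922505G16Rik (3.59), Mycn (3.54), Egr2 (3.23), Fos (3.13), Dusp5 (2.50), Sema7a (1.94), Sar1b (1.93), Nr4a1 (1.77), Espl1 (1.33), Dusp6 (1.33), Incenp (1.12) and Sec24c (0.77). Egr1 and Egr3, transcription factors of 1 family, lead these, and the GTPase Sar1b and the coat subunit Sec24c belong to vesicles that leave the ER. 4922505G16Rik was low, with means of 0.315 and 0.442 CPM at 45 and 135 min of tunicamycin and 1.25 and 0.145 CPM in heat. The last of these is only a few times the level of 3 reads.

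More negative in tunicamycin were Cdh3 (-5.68), Atf3 (-5.53), Gdf15 (-4.85), Fgf21 (-4.47), Flrt1 (-3.89), Trib3 (-3.15), Txnip (-3.09), Gadd45a (-2.91), Herpud1 (-2.88), Rab39b (-2.85), Otub2 (-2.76), Slc7a11 (-2.64), Trim66 (-2.61), Mt2 (-2.60), Chac1 (-2.46), Myd116 (-2.32), Ddit3 (-2.27), Hspa5 (-2.15), Nfil3 (-2.15), Ptx3 (-2.10), Sdf2l1 (-1.89), Xbp1 (-1.49) and Cox7c (-0.87). Gdf15, a stress hormone, stood at 0.649 CPM at 45 min and 0.233 CPM at 135 min of tunicamycin and at 0.34 and 3.52 CPM in heat, and Txnip at 310.4 and 127 CPM against 58.7 and 209.8 CPM. Ddit3, Trib3 and Chac1 are among these genes although none of them passed the comparison of the tunicamycin times alone.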

How the results depend on the processing

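All 38 genes kept their direction in each of the 18 alternatives fitted, and the calls depended on them. In place of 38 genes (15 higher, 23 lower), 60 passed with total counts (17 higher, 43 lower, with the median of all genes at -0.13), 617 with the DESeq2 Wald test, 343 with edgeR's exact test, 106 with a fit of all 18 samples, 301 with one of the 12 control and tunicamycin samples and 284 with the GC offset (144 higher, 140 lower). Of the 38 genes, 34, 38, 38, 34, 38 and 36 passed there. Without filter, with filterByExpr, with DESeq2 size factors and with the legacy fit 33, 37, 34 and 37 genes passed, and 30 of the 38 had a log2 fold change of at least 1 in size. Of the list members, 18 passed, against 82, 65, 28, 59 and 65 with the Wald test, the exact test, both larger fits and the GC offset. The replicate block left 0 genes and 0 list members, also with the GC offset; the DESeq2 Wald test without a block gave 617. Samples with the same number did not consistently deviate together (correlations of -0.64, 0.27 and -0.53). The deviations also went with GC content. Their Spearman correlations with it were -0.55, -0.27 and 0.58 at 45 min and 0.60, -0.54 and -0.49 at 135 min. Whether the numbers pair the samples therefore cannot be decided from these values. Leaving out 1 sample gave 0 to 213 genes and 0 to 66 list members, and 118 to 855 interaction genes in place of 415, for which the Wald test gave 999, the 18-sample fit 761, the replicate block 135 and the GC offset 1207. The cause of these shifts was not tested. With 1 sample left out, the log2 fold change ran from -0.16 to 0.42 for Dpagt1 (-0.08 and -0.05 without 135 min replicates 2 and 3), from -0.0081 to 0.31 for Atf4, from -0.069 to 0.49 for Bloc1s1 and from -0.17 to 0.84 for 4922505G16Rik, the last 3 below 0 only without 135 min replicate 1. For genes under about 0.1 CPM, as Extl1 at 135 min, counting error limits the size of a change.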
